A study of Pyrocoelia pectoralis with 6 samples.

Results

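Acyl-CoA thioesterases were followed as 4 genes of the firefly Pyrocoelia pectoralis, out of 12533 genes in the deposited expression table. They were chosen by the words of their descriptions, which the authors' table gives. The rule did not use their values, though earlier results of these data were known. RNA had been sequenced from male fireflies, as 3 libraries of the luminous organ, the tissue that makes the light, and 3 libraries of the non-luminous organ, which the labels do not describe further. Nothing in the labels tells separate animals from pooled ones or from repeat libraries of the same RNA, so p-values here cover the spread among the libraries alone, and some of that spread may be technical. The purpose given is transcriptome sequencing only.

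Acyl-CoA thioesterases cut the thioester bond of an acyl-CoA and release a free acid and coenzyme A. They thereby run against the acyl-CoA ligases, which make the thioester and to which firefly luciferase is related in sequence. In vitro, luciferase joins the L form of luciferin to coenzyme A, the product can change its handedness, and a thioesterase then releases D-luciferin, the form that gives light. In mammals ACOT13 is a small thioesterase of the hotdog fold that prefers long-chain acyl-CoAs, and ACOT9 is a mitochondrial one. Whether any of the genes described here acts on luciferyl-CoA was not measured.

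Of the 4 genes, 3 were described as acyl-coenzyme A thioesterase 13 and 1 as acyl-coenzyme A thioesterase 9, mitochondrial. The 3 ACOT13 genes had consecutive identifiers, RI129_001026 (symbol ACOT13), RI129_001027 (Acot13) and RI129_001028 (ACOT13), and the remaining gene was RI129_004388 (Acot9). The descriptions rest on similarity to proteins of other species, and the counting of reads that match more than a single copy is not given. Gene lengths implied by the steps of the FPKM values (read numbers scaled to gene length and to the library total) were 417, 438 and 489 bases for the ACOT13 genes and 1326 bases for Acot9. Such lengths are known up to a factor that all reads of a gene share. Each is a multiple of 3, so they were taken as coding lengths of 139, 146, 163 and 442 codons including the stop. All 4 genes carried the annotation terms acyl-CoA hydrolase activity, palmitoyl-CoA hydrolase activity and mitochondrial matrix. The 3 ACOT13 genes also carried myristoyl-CoA hydrolase activity and cytosol, and Acot9 alone among them carried acetyl-CoA hydrolase activity.

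The libraries were of similar depth, with totals of 18.0 to 20.4 M reads (M for mega). Pearson's r of log2(FPKM + 1) across genes, which are not independent replicates, was 0.948 to 0.974 within the luminous organ, 0.979 to 0.981 within the non-luminous organ and 0.863 to 0.924 between them. The luciferase gene RI129_003463, described as luciferin 4-monooxygenase, had 532, 374 and 292 FPKM in luminous libraries and 0.322, 0.595 and 0.505 FPKM in non-luminous libraries, so it was high in every library labelled luminous and below 1 FPKM in the others. It was chosen, among genes of its description called higher there, for the highest luminous mean, and not all genes of that description mark the organ. The most abundant of them, RI129_011075, had 502 ± 135 FPKM in luminous libraries, against 333 ± 23.2 FPKM in non-luminous libraries (SD, n = 3 each), and did not pass (limma adjusted p = 0.0623, range 0.0362 to 0.186), though it did with luminous replicate 1 left out (0.0362) and under quantile normalization (0.0403) or median-of-ratios rescaling (0.0486).

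Thioesterase mRNA was present in both organs at levels of the same order. The most abundant gene, RI129_001026, was modestly higher in the luminous organ. Its difference passed the test as reported but in only 7 of 15 alternative settings. RI129_001028 differed by 0.43 on the log2 scale and did not pass the test, Acot9 stood at nearly the same level in both organs, and RI129_001027 was near the limit of detection throughout. Of the 4 genes, all tested, limma called 1, which was higher, at a Benjamini-Hochberg adjusted p under 0.05. Among all 9863 tested genes 26.6% were called, 9.63% as higher in the luminous organ and 17.0% as lower. A count of 1 in 4 is near that background.

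RI129_001026 had 51.9, 45.9 and 54.0 FPKM in luminous replicates 1, 2 and 3, and 37.4, 38.0 and 39.4 FPKM in non-luminous replicates 1, 2 and 3. All luminous libraries were above all non-luminous ones. The mean was 50.6 ± 4.22 FPKM in luminous libraries, against 38.2 ± 1.01 FPKM in non-luminous libraries (SD, n = 3 each), a ratio of 1.32. The difference of mean log2(FPKM + 1), luminous minus non-luminous, was 0.39 (SE 0.113, limma adjusted p = 0.0393), and its 95% interval ran from 0.13 to 0.66, or 1.09-fold to 1.58-fold. An absolute difference larger than this was found in 45.2% of all tested genes. In reads, the gene had 434, 391 and 427 in luminous libraries and 294, 291 and 296 in non-luminous libraries. The coefficient of variation among the non-luminous libraries, 2.63%, was smaller than the counting error of 5.81 to 5.86% that such read numbers carry. Leaving out luminous replicate 1 or 3 ended the call (adjusted p = 0.0709 and 0.113), as did leaving out non-luminous replicate 1, 2 or 3 (0.117, 0.109 and 0.102), the use of voom on recovered reads (0.0861) and a fit with no intensity trend (0.0643), with a range of 0.0151 to 0.117 over all alternatives.

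RI129_001028 had 30.1, 25.8 and 24.3 FPKM in luminous replicates 1, 2 and 3, and 18.3, 18.1 and 22.3 FPKM in non-luminous replicates 1, 2 and 3. The organs did not overlap for this gene either, though luminous replicate 3 and non-luminous replicate 3 lay close together. The mean was 26.7 ± 3.01 FPKM in luminous libraries, against 19.6 ± 2.37 FPKM in non-luminous libraries (SD, n = 3 each). The log2 difference was 0.43 (SE 0.147, 95% interval 0.09 to 0.77), with a limma adjusted p of 0.0682, which did not pass. It passed after median-of-ratios rescaling (adjusted p = 0.0319) and after quantile normalization (0.0212), and in none of the other alternatives, with a highest adjusted p of 0.188. The groups did not overlap with all luminous libraries higher for 2 of the 4 thioesterase genes, and for 17.4% of all tested genes (46.1% counting both directions).

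**Figure D1:**
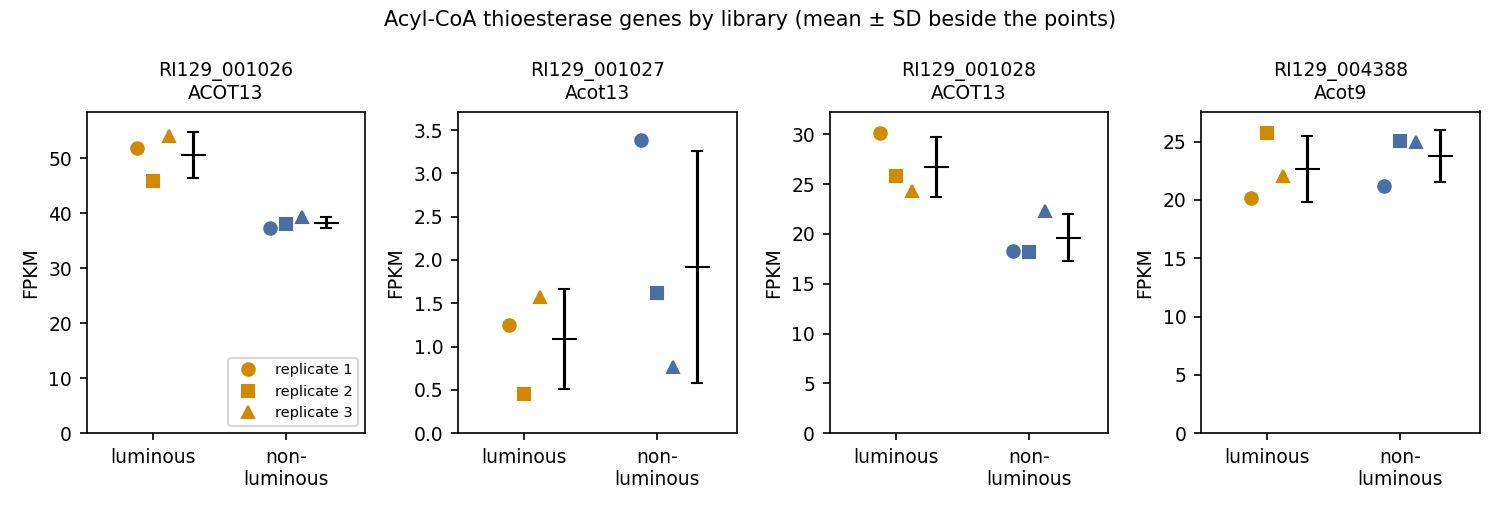
FPKM of each acyl-CoA thioesterase gene in every library (points, with marker shapes for replicates 1 to 3), luminous organ left and non-luminous organ right, with mean ± SD of 3 libraries beside the points. RI129_001026 and RI129_001028 do not overlap between organs, while RI129_001027 and RI129_004388 do, and each panel has its own axis from 0.

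Acot9 (RI129_004388) had 20.1, 25.7 and 22.0 FPKM in luminous replicates 1, 2 and 3, and 21.2, 25.1 and 25.0 FPKM in non-luminous replicates 1, 2 and 3. The organs overlapped fully, and the highest and the lowest value were both luminous. The mean was 22.6 ± 2.84 FPKM in luminous libraries, against 23.8 ± 2.21 FPKM in non-luminous libraries (SD, n = 3 each). The log2 difference was -0.07 (SE 0.145, limma adjusted p = 0.758). Its 95% interval, -0.41 to 0.27, spans ratios of 0.753 to 1.20. The sign turned under median-of-ratios rescaling (0.03), quantile normalization (0.08) and without luminous replicate 1 (0.01), and adjusted p was at least 0.453 in every alternative run.

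RI129_001027, the middle one of the 3 consecutive identifiers, had 1.25, 0.447 and 1.57 FPKM in luminous replicates 1, 2 and 3, and 3.39, 1.62 and 0.759 FPKM in non-luminous replicates 1, 2 and 3. The organs overlapped, and non-luminous replicate 1 was the highest. These values rest on 11, 4 and 13 reads in luminous libraries and 28, 13 and 6 reads in non-luminous libraries, with counting errors of 27.7 to 50.0% in luminous libraries and 18.9 to 40.8% in non-luminous libraries. The coefficient of variation was 53% among luminous libraries and 69.8% among non-luminous libraries, above the counting errors in each organ. The log2 difference was -0.42 (SE 0.400, 95% interval -1.36 to 0.51, limma adjusted p = 0.472), and a difference between the organs was not detected. The gene stood just above the filter of a mean of 1 FPKM over the 6 libraries.

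FPKM is scaled to length, so levels were set beside each other as a description. How reads matching more than a single copy were counted is not given. Effects of gene length beyond this scaling were not tested. In the luminous organ RI129_001026 was the highest of the 4, above every value of the others, and higher than 81.9% of all genes in the table by its mean. RI129_001028 and Acot9 followed, at percentiles 69.2 and 65.3, with overlapping ranges, and RI129_001027 came last at 24.4. In the non-luminous organ the percentiles were 75.2 for RI129_001026, 64.2 for Acot9, 59.9 for RI129_001028 and 26.8 for RI129_001027. Acot9 and RI129_001028 thus changed places between the organs, and their ranges overlapped in each.

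The 4 genes summed to 103, 97.9 and 102 FPKM in luminous replicates 1, 2 and 3, and 80.3, 82.8 and 87.4 FPKM in non-luminous replicates 1, 2 and 3. RI129_001026 made up 50.0 ± 3.07% of the sum in the luminous organ and 45.8 ± 0.770% in the non-luminous organ (SD, n = 3 each). The share of Acot9 was 22.4 ± 3.47% in the luminous organ and 28.4 ± 1.95% in the non-luminous organ. RI129_001028 held 26.4 ± 2.64% and RI129_001027 1.07 ± 0.554% in the luminous organ, against 23.4 ± 1.90% and 2.35 ± 1.71% in the non-luminous organ.

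**Figure D2:**
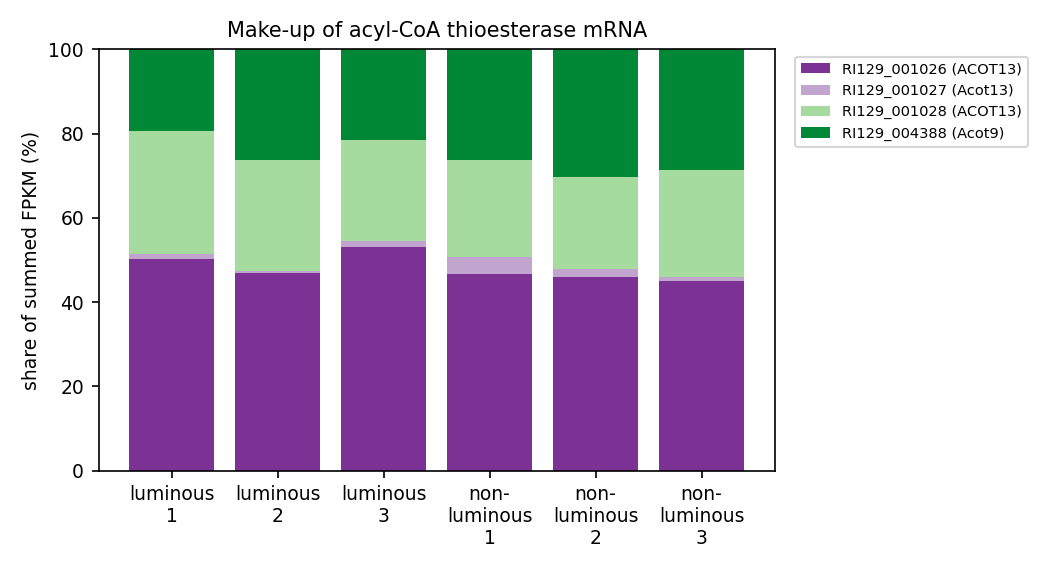
Share of the summed FPKM of the 4 acyl-CoA thioesterase genes taken by each gene (stacked, %), one bar per library, the 3 luminous libraries left and the 3 non-luminous libraries right. RI129_001026 takes 46.9 to 53.0% of each luminous bar and 45.0 to 46.6% of each non-luminous bar.

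Ratios of FPKM within a library do not depend on a scaling factor for that library. RI129_001026 over Acot9 was 2.58, 1.79 and 2.46 in luminous replicates 1, 2 and 3, and 1.76, 1.51 and 1.58 in non-luminous replicates 1, 2 and 3. RI129_001028 over Acot9 was 1.5, 1.0 and 1.1 in luminous libraries and 0.865, 0.723 and 0.895 in non-luminous libraries. Neither ratio overlapped between organs, and each had a two-sided exact permutation p of 0.1, the smallest that 3 against 3 libraries can give. RI129_001026 over RI129_001028 was 1.73, 1.78 and 2.23 in luminous libraries and 2.04, 2.09 and 1.76 in non-luminous libraries, which overlapped (exact permutation p = 0.9). These were the 3 ratios tested, and none can pass a threshold of 0.05 in this design. The summed ACOT13 genes over Acot9 were also computed, without a test. That ratio was 4.14, 2.81 and 3.63 in luminous libraries and 2.79, 2.30 and 2.50 in non-luminous libraries.

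Genes with the most similar course over the 6 libraries were named by Pearson's r of log2(FPKM + 1) among 8129 described genes, as a description. For RI129_001026 they were TMEM50B (r = 0.996), Ncam2 (0.995) and sturkopf, a lipid droplet-associated hydrolase (0.995). For RI129_001028 they were FBXL12 (0.968), GILT1 (0.967) and PFDN5 (0.967). Acot9 was closest to ZSCAN32 (0.965), Fbn2 (0.951) and tmem248 (0.948), and RI129_001027 to RGS20 (0.989), E(z) (0.981) and STAG1 (0.961). With 6 libraries and so many candidates, values of at least 0.948 were found for each of the 4.

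RI129_003463 averaged 399 ± 122 FPKM in luminous libraries, against 0.474 ± 0.139 FPKM in non-luminous libraries (SD, n = 3 each). It passed the filter on low values only through the luminous organ, so its log2 difference of 8.05 is given without a test, and that value depends on the added constant (6.16 with a pseudocount of 5, 9.43 with 0.1 and 9.67 by voom). Most genes of its description did not share its direction. Among 21 tested luciferase-like genes, which share the description luciferin 4-monooxygenase, limma called 2 higher and 12 lower (7 were not called). The 2 higher are RI129_003463, whose call is not read as a test, and RI129_011128, close to the threshold (log2 difference 0.60, limma adjusted p = 0.0491). Over all tested genes, 9.63% were called higher and 17.0% lower. The luciferase-like genes had a median log2 difference of -0.95, against -0.10 over all tested genes and 0.16 over the 4 thioesterases. The number lower was 5 with luminous replicate 3 left out, and 6, 6 and 4 with non-luminous replicates 1, 2 and 3 left out. It was 7 after quantile normalization, 8 under the replicate block and 10 with no filter on low values or after median-of-ratios rescaling. A minimum of 5 FPKM, which tests fewer of the genes, gave 7. The number higher was 1 with any library but luminous replicate 1 left out, and 3 after quantile normalization and after median-of-ratios rescaling. The alpha-methylacyl-CoA racemase gene Amacr (RI129_004319), whose enzyme turns over the handedness of branched acyl-CoAs in mammals, had 80.9 ± 22.3 FPKM in luminous libraries, against 91.5 ± 2.14 FPKM in non-luminous libraries (SD, n = 3 each). It was not called (log2 difference -0.21, limma adjusted p = 0.436), but was called lower without luminous replicate 2, its highest library (adjusted p = 0.0303, range 0.0303 to 0.750).

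Other thioesterases act on proteins by their descriptions. The palmitoyl-protein thioesterase genes among them also carried the term palmitoyl-CoA hydrolase activity, as the acyl-CoA thioesterases did, so that term does not separate them. Of 6 tested genes, limma called 0 (1 at an unadjusted p under 0.05) and voom on recovered reads 0, with 1 lower when luminous replicate 2 was left out and 2 higher after quantile normalization. The most abundant, LYPLA1 (RI129_008884), described as acyl-protein thioesterase 1, had 55.9 ± 8.22 FPKM in luminous libraries, against 64.7 ± 1.31 FPKM in non-luminous libraries (SD, n = 3 each; limma adjusted p = 0.255). PPT1 (RI129_008473), a palmitoyl-protein thioesterase, which removes fatty acids from proteins in the lysosome, had 23.9 ± 4.10 FPKM in luminous libraries, against 31.3 ± 2.30 FPKM in non-luminous libraries (adjusted p = 0.105). It was the gene called lower without luminous replicate 2 (limma adjusted p = 0.0371). RI129_012251, of the same description, went the other way, at 2.86 ± 0.863 FPKM in luminous libraries, against 1.58 ± 0.0795 FPKM in non-luminous libraries (limma adjusted p = 0.133). RI129_008472, also of that description, fell under the filter. The word list also took in 3 ubiquitin thioesterases, which act on ubiquitin chains.

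Genes that make and use acyl-CoAs were called in both directions. The shares over all tested genes were 9.63% called higher and 17.0% called lower. Of 28 tested acyl-CoA synthetases and ligases, 5 were higher and 6 lower (median log2 difference -0.14), from 4cl1 (RI129_007505, 1.71) to 4cl3 (RI129_007575, -1.99), both described as probable 4-coumarate-CoA ligases. With luminous replicate 3 left out, 2 ligases were higher and 3 lower. With non-luminous replicates 1, 2 and 3 left out, 1, 3 and 1 ligases were higher and 2, 3 and 1 lower, and after quantile normalization 8 were higher. Of 36 genes matched for fatty acid beta-oxidation, 16 were lower and 2 higher (median -0.47). They included ACOX3 (RI129_006488), a peroxisomal acyl-CoA oxidase, at 12.7 ± 6.49 FPKM in luminous libraries, against 39.1 ± 7.98 FPKM in non-luminous libraries (SD, n = 3 each; log2 difference -1.64, limma adjusted p = 0.0114). Leaving out non-luminous replicate 3 ended that call (adjusted p = 0.0533, the highest of the alternatives, with a lowest of 0.00193). The number lower was 9 with luminous replicate 3 left out, and 8 and 4 with non-luminous replicates 2 and 3 left out, and the number higher was 0 to 1 with any library left out and 4 after quantile normalization and after median-of-ratios rescaling. The higher gene hpo-8 (RI129_004413) and the lower gene HACD3 (RI129_001467) are dehydratases of fatty acid elongation, caught by their names. The other matches also rest on words of the descriptions alone, and may not all belong to beta-oxidation.

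Of 5 tested carnitine genes 4 were lower (median -0.58), among them Crat (RI129_005433), carnitine O-acetyltransferase, at 4.03 ± 1.74 FPKM in luminous libraries, against 17.7 ± 2.67 FPKM in non-luminous libraries (SD, n = 3 each; log2 difference -1.94, limma adjusted p = 0.00338). The number lower was 2 without any library but luminous replicate 2, and also 2 after median-of-ratios rescaling, after quantile normalization and with no intensity trend. Of 3 acyl-CoA-binding proteins, which carry acyl-CoAs, 0 were called by limma or voom in any alternative, and 0 had an unadjusted p under 0.05. Of 7 genes of CoA synthesis and breakdown 1 was lower, and of 14 genes matched as peroxins, which build peroxisomes, 2 were lower. Both shares were no larger than the 17.0% of all tested genes that were called lower. The peroxin words also caught Slc25a17 and Pxmp2, peroxisomal membrane proteins that are not peroxins. The count for CoA synthesis and breakdown was 0 with luminous replicate 3 or any non-luminous library left out, after quantile normalization or median-of-ratios rescaling, by voom and with no filter on low values. The peroxin count was 0 with luminous replicate 3 or non-luminous replicate 2 or 3 left out, and 1 with non-luminous replicate 1 left out.

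**Figure D3:**
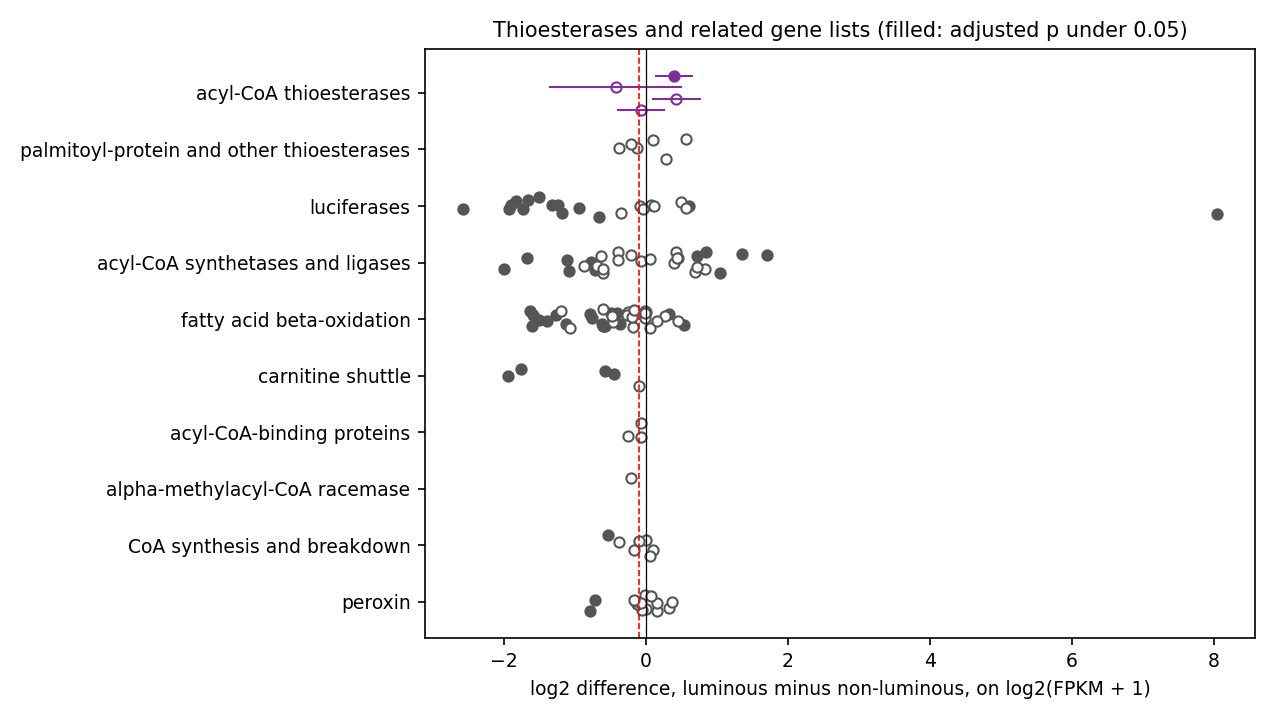
Log2 difference on log2(FPKM + 1), luminous minus non-luminous, for each tested gene of the acyl-CoA thioesterases (top row, with 95% intervals) and of 9 related lists, one point per gene, filled where the adjusted p was under 0.05, with vertical jitter. The dashed line marks the median of all tested genes (-0.10). The thioesterases lie between -0.42 and 0.43, and the luciferase gene RI129_003463 stands alone at 8.05. The fill of that point is not read as a test, as the gene passed the filter only through the luminous organ.

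In bulk tissue, less RNA per cell and fewer cells of a type cannot be told apart, and the organs differed in the tissue markers they held. For comparison, 9.63% of all tested genes were called higher and 17.0% lower. Of 15 tested muscle genes 10 were higher and 0 lower, and their FPKM summed to 68930 to 72800 in luminous libraries and 27910 to 35730 in non-luminous libraries. Of 80 tested midgut digestion genes 40 were lower and 7 higher, with sums of 2382 to 3398 in luminous libraries and 6950 to 8733 in non-luminous libraries. Of 7 tested fat body genes 6 were lower and 1 higher, with sums of 296 to 481 in luminous libraries and 727 to 902 in non-luminous libraries. Of 19 tested cuticle genes 7 were higher and 0 lower, with sums of 646 to 827 in luminous libraries and 250 to 476 in non-luminous libraries. Of 12 tested nervous tissue genes 3 were higher and 2 lower, with sums of 543 to 656 in luminous libraries and 340 to 424 in non-luminous libraries. Calls of nervous tissue genes thus went both ways, with a median log2 difference of 0.07. No gene of the deposited values was at 0 in all libraries, so this holds for the markers too. Of 133 matched midgut genes 80 were tested, and of 40 matched cuticle genes 19, as the others had a mean under 1 FPKM. The part of these tissues in the thioesterase values was not tested.

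**Figure D4:**
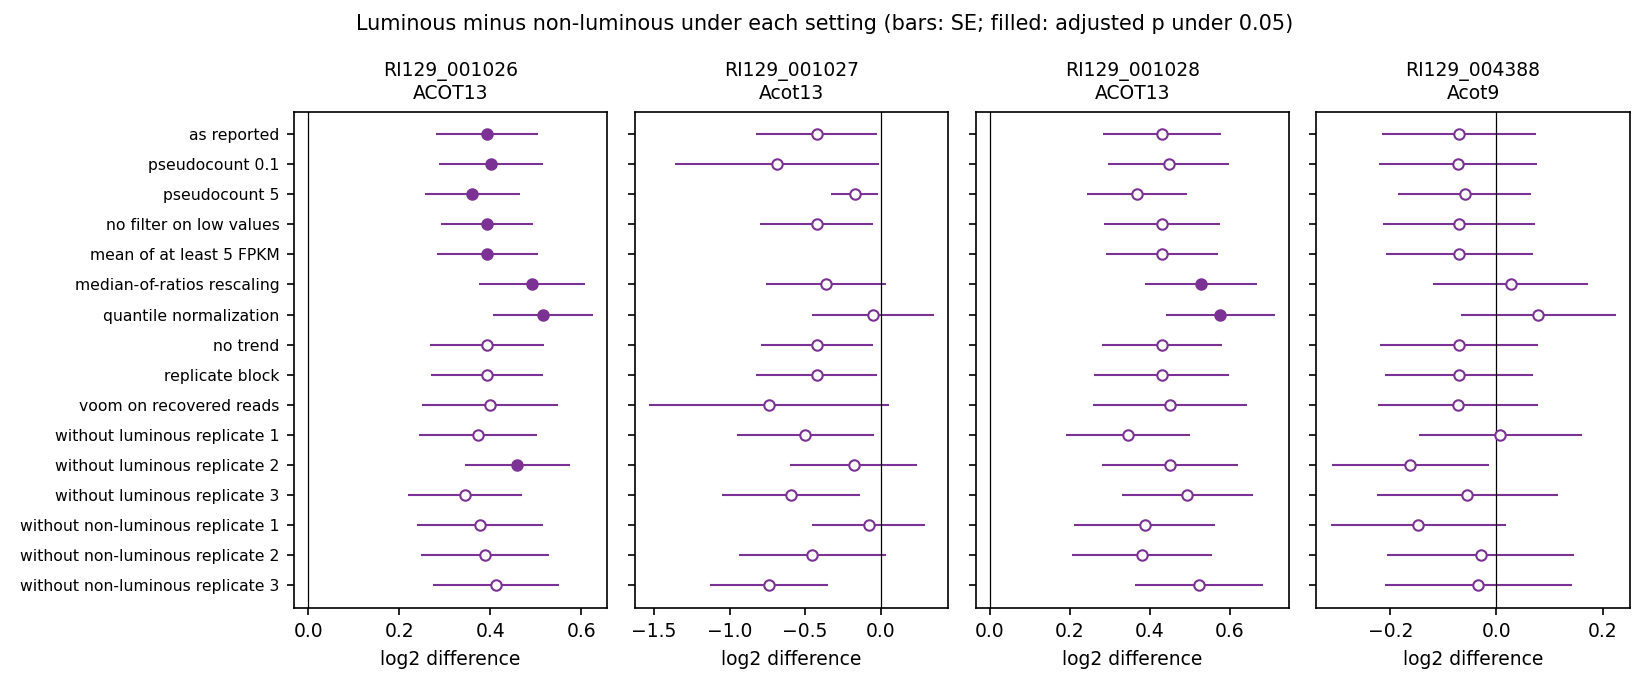
Log2 difference, luminous minus non-luminous, of each acyl-CoA thioesterase gene as reported and under each alternative setting (points, bars are SE), filled where the adjusted p was under 0.05; each panel has its own axis. RI129_001026 runs from 0.345 to 0.516 and RI129_001028 from 0.345 to 0.576 with no change of sign, while Acot9 lies on both sides of 0, turning positive after rescaling, after quantile normalization and without luminous replicate 1.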

How the data were processed

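The values are FPKM as deposited by the authors, 1 table of 12533 genes and 6 libraries, per the file headers. Per the labels' protocols, the RNA was a Trizol extract and the mRNA kit kept strand. HISAT2, HTSeq, Trimmomatic and R 3.2.0 are named, without roles, per the submitters' processing notes. Build, annotation, strand setting and filters: not given in the sources used here. Columns were tied to samples by library name, and 0 value columns were left without a sample.

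Reads were recovered from the FPKM steps, which gave whole numbers within 0.02 reads for 99.99% of 11795 genes above 0 in 3 or more libraries. The absolute total was the one nearest to the sum of reads that it implies. Counting errors are 1 over the square root of the reads and cover counting only.

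The 9863 genes whose mean reached 1 FPKM were tested as log2(FPKM + 1) with limma 3.58.1 in R 4.3.3 (eBayes with a trend, two-sided; Benjamini-Hochberg over all tested genes, called under 0.05), after a check on simulated data. The added 1 understates the change of low genes. Members and lists, matched by words in descriptions, were chosen with earlier results of these data known. Named genes were all members, the called list genes with the largest difference in each direction and the most abundant list genes. They also took in the 3 genes closest to each member. The text uses a subset, and HACD3, PPT1, RI129_008472, RI129_012251, RI129_011128, Slc25a17, Pxmp2, ACAA2 and Abcd3 were added after their values were seen. Alternatives were other pseudocounts, filters and scalings, no trend, a replicate block, voom on recovered reads and each library left out.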

Additional observations from a re-analysis of the deposited data

How the results depend on the processing

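The log2 difference kept a positive sign in all 15 alternatives for RI129_001026, which was called in 7, and for RI129_001028, which was called in 2. That of RI129_001027 kept a negative sign in the 14 run (not with a minimum of 5 FPKM) and did not pass in any of them, down to -0.05 after quantile normalization. The call of RI129_001026 was lost without an intensity trend (log2 difference 0.39, adjusted p = 0.0643), under the replicate block (0.39, adjusted p = 0.0827) and by voom on recovered reads (0.40, adjusted p = 0.0861), so that 0 thioesterases were called in each (2 at an unadjusted p under 0.05). RI129_001028 passed after median-of-ratios rescaling (0.53) and quantile normalization (0.58), giving 2 called genes in each, while Acot9 (RI129_004388) turned to 0.027 and 0.079. With each library left out in turn, log2 differences ran from 0.345 to 0.460 for RI129_001026 and from -0.162 to 0.007 for Acot9, thioesterases called from 0 to 1 and all genes called from 1119 to 2648. Fewer libraries give less power, and the cause of the lost calls was not tested. Quantile normalization moved the median of all genes by 0.17; relative to that median RI129_001026 differed by 0.44 there and by 0.49 as deposited, RI129_001028 by 0.50 and 0.53 and Acot9 by 0.01 and 0.03. It also gave 53.8% of calls as higher, against 36.2% as deposited. Libraries sharing a replicate number did not deviate together (r = -0.111, -0.009 and -0.166, and 0 of 6 libraries correlated best with their own number), and the replicate block took the calls over all genes to 1996, ligases higher to 1 and beta-oxidation genes higher to 0, carnitine genes lower to 2 and CoA genes lower to 0. RI129_001027 rests on 4 to 28 reads per library, and the part of depth in its result was not tested.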

Other observations

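Besides the 4 thioesterases, 4 more genes carried the term acyl-CoA hydrolase activity, looked up after the values were seen. They were 3 genes described as mitochondrial 3-ketoacyl-CoA thiolase (ACAA2), an enzyme of beta-oxidation, and Abcd3, a transporter of acyl-CoAs into peroxisomes. Abcd3 (RI129_006569) had 28.7 ± 2.76 FPKM in luminous libraries, against 45.4 ± 1.52 FPKM in non-luminous libraries (SD, n = 3 each), a log2 difference of -0.65 (limma adjusted p = 0.00904) that was called in all 15 alternatives. The ACAA2 gene RI129_002486 had 42.0 ± 6.85 FPKM in luminous libraries, against 64.8 ± 2.35 FPKM in non-luminous libraries, with a log2 difference of -0.63 (limma adjusted p = 0.0162). Its call was lost without luminous replicate 3 (adjusted p = 0.0527) and without non-luminous replicates 2 and 3 (0.0589 and 0.0663), with a range of 0.00587 to 0.0663 over all alternatives. The other ACAA2 genes, RI129_000117 and RI129_002485, differed by -0.46 and -0.48 and did not pass (limma adjusted p = 0.128 and 0.0960).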
